A study of Homo sapiens with 5 samples.

Results

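The genes of Polycomb repressive complex 2 (PRC2) were examined in TOV21G, a cell line of ovarian clear cell carcinoma in which ARID1A is mutated, and in EZH2 inhibitor-resistant (EIR) clones derived from it. Members were chosen by symbol: EZH2, EZH1, EED, SUZ12, RBBP4, RBBP7, JARID2, AEBP2, PHF1 and MTF2. Each symbol matched 1 Ensembl identifier of the count table, giving 10 genes of the 30476 in the table. The 5 RNA-seq libraries comprised 1 of parental cells, 2 of untreated EIR cells (clones 3 and 4) and 2 of the same clones treated with GSK126. GSK126 is a small molecule that competes with the methyl donor in the active site of EZH2 and inhibits EZH1 much less. EIR cells, the untreated ones included, had been selected in steps of 5, 10, 15 and 20 uM GSK126 before clones were picked, whereas the labels give no GSK126 exposure for the parental cells. The dose and length of the treatment before RNA was taken were not given in the sources used here for these libraries. Each EIR clone is 1 clone, and its treated and untreated libraries are not independent clones.

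PRC2 methylates lysine 27 of histone H3, a mark of genes held in a repressed state. EZH2 or its paralog EZH1 carries the methyltransferase domain, and both need EED and SUZ12 for activity. EED binds the trimethylated mark and SUZ12 is the scaffold, while the histone chaperones RBBP4 and RBBP7 complete the core and also serve in other chromatin complexes. Accessory subunits join in mutually exclusive sets and help the complex to find its targets. JARID2 and AEBP2 form the one set, and a Polycomb-like protein (PHF1, MTF2 or PHF19) belongs to the other. EZH2 is typically abundant in dividing cells, whereas EZH1 persists in resting ones.

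Total counts per library lay between 25479238 and 30764963, and between 15588 and 16432 genes had at least 10 counts. Values are given as normalized counts, which are counts divided by a size factor of the library, and a gene was called where its Benjamini-Hochberg adjusted p over all genes tested was under 0.05. Of the markers of clear cell and Mullerian epithelium, the transcription factor PAX8 had 4523 normalized counts in parental cells against 3720 ± 444 (SD, n = 4) in the EIR libraries, and KRT8 and KRT18 were also detected in all 5 libraries. EPCAM and CDH1, which make epithelial adhesion proteins, separated the clones: EPCAM had 401 normalized counts in parental cells, 394 and 492 in untreated and treated clone 3, and 0 and 1.1 in clone 4. CDH1 had 6.0 in parental cells, up to 146 in clone 3, and 2.0 and 4.2 in clone 4. Parental cells were thus near clone 3 in EPCAM and near clone 4 in CDH1. Fibroblast and leukocyte markers stayed at or below 91.7 normalized counts, with PTPRC, the leukocyte marker CD45, between 2.0 and 14.8. Clone 4 thus differed from clone 3 in epithelial markers as well, and the part of this in the clone differences of PRC2 genes was not tested.

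The promoters of 4 genes are shown because the results turn on them: EZH2 is the drug target, EZH1 and PHF1 were lower in EIR cells, and SUZ12 differed between the clones. Each sequence runs 5′ to 3′ from 200 bases before to 10 bases after the first RefSeq start site, from RefSeq on GRCh38.p14, a later build than the one used for the counts. Capitals mark E2F words (TTTGGCGC, TTTCCCGC, TTTGCCGC or TTTCGCGC) and CCAAT boxes (CCAAT), each on either strand. E2F proteins switch on genes of DNA replication, and CCAAT boxes are bound by NF-Y. The coordinates are chr7:148884282-148884491 (minus strand) for EZH2, chr17:42745031-42745240 (minus strand) for EZH1, chr17:31936807-31937016 (plus strand) for SUZ12 and chr6:33410814-33411023 (plus strand) for PHF1.
EZH2: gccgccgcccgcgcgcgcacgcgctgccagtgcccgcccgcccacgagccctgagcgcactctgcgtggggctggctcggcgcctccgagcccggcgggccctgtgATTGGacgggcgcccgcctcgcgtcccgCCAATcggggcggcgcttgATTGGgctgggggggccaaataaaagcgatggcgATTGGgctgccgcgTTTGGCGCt
EZH1: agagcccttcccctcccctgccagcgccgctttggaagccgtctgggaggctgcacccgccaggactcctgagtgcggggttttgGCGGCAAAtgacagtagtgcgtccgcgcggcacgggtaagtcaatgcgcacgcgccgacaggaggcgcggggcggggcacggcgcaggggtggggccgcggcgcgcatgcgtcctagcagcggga
SUZ12: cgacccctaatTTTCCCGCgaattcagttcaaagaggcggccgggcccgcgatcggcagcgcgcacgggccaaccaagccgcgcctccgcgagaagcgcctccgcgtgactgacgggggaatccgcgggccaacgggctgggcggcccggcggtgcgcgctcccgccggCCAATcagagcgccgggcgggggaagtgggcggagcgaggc
PHF1: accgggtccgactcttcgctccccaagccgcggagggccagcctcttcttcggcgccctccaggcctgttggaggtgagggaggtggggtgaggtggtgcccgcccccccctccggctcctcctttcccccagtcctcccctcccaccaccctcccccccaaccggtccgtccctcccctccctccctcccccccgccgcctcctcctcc

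Counting the start site as base 1, EZH2 held an E2F word at bases 2 to 9 and CCAAT boxes that began at bases -94, -66, -47 and -13. EZH1 held an E2F word at -115 to -108 and no CCAAT box. SUZ12 held an E2F word at -189 to -182 and a CCAAT box at -31 to -27, and PHF1 held neither. Windows of 300 bases (250 before and 50 after) were taken at each RefSeq start, and some members had a further window. An E2F word was held by 5 of 10 members, against 3.31% of all 35116 windows. A CCAAT box was held by 6 of 10, against 34.6%. The further E2F words were in AEBP2 (-150 to -143) and MTF2 (6 to 13). The background windows were not matched for GC content, which lay between 52.3% (EED) and 79.3% (RBBP7) in the member windows. A member counted if any of its windows held a match, whereas the background was counted per window. These are letter matches only, and binding was not measured here.

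The first question was whether the drug target itself differed in EIR cells. For EZH2 (ENSG00000106462, chromosome 7, 148504349 to 148581413, minus strand, GRCh37) the normalized count was 2746 in parental cells, 2567 in untreated and 2607 in GSK126-treated clone 3, and 3296 in untreated and 3223 in treated clone 4. Clone 3 therefore lay below the parental level and clone 4 above it, in both libraries of each. The log2 fold change of EIR over parental cells was 0.09 (95% interval -0.37 to 0.55, DESeq2 adjusted p 0.825), and it stayed between 0.03 and 0.16 in 12 alternative fits, none of which called it. With 1 parental library, the spread behind this interval came from the EIR libraries only, and a difference of the cells cannot be told apart from one of that library.

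EZH1 had the largest log2 fold change of the 10 members against parental cells. For EZH1 (ENSG00000108799, chromosome 17, 40852293 to 40897067, minus strand) the normalized count was 1176 in parental cells, 598 in untreated and 584 in treated clone 3, and 617 in untreated and 536 in treated clone 4. All 4 EIR libraries were close to 1 level, with a mean of 584 ± 34.6 (SD, n = 4), and lay well below parental cells. EZH1 fell by 1.01 on the log2 scale (SE 0.19, 95% interval -1.38 to -0.64, DESeq2 adjusted p 3.13e-06). It passed the threshold in all 12 alternative fits, with an adjusted p of 0.0198 in edgeR and 0.0238 in DESeq2 on the sums of each clone. All of these fits used the same single parental library, so a difference of the cells cannot be told apart from one of that library. In bulk RNA, less transcript in every cell and fewer cells with the transcript cannot be told apart. After correction for the GC content of transcripts (48.0% for EZH1) the log2 fold change was -0.92.

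**Figure D1:**
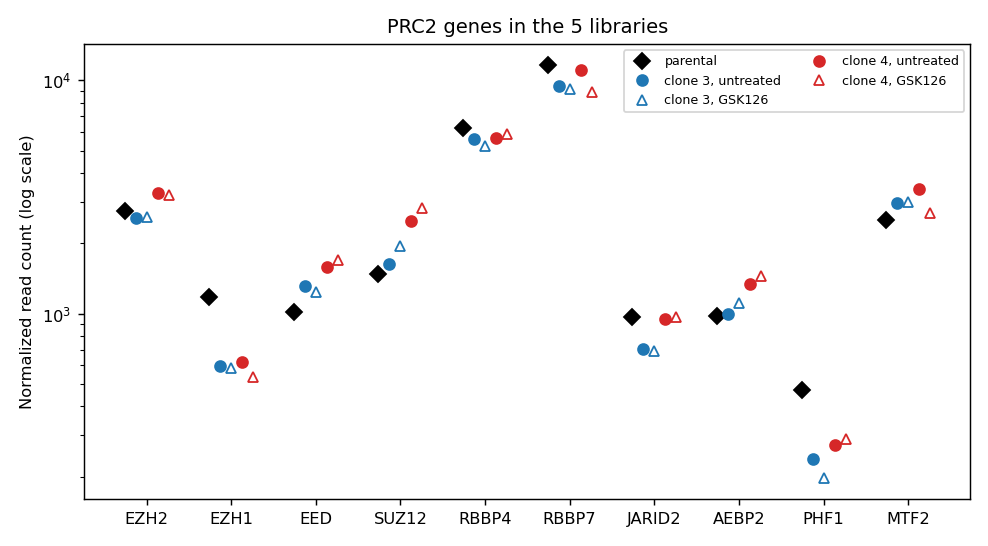
Normalized read counts (log axis) of the 10 PRC2 genes, 1 point per library. EZH1 and PHF1 show the parental library (black) far above the 4 EIR libraries, whereas for EZH2 the parental library lies between clone 3 (blue) and clone 4 (red).

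The balance of the paralogs followed from these values. Counts of EZH2 over those of EZH1, a ratio within each library that needs no scaling between libraries, were 2.33 in parental cells, 4.29 and 4.46 in untreated and treated clone 3, and 5.34 and 6.01 in clone 4. The EIR mean was 5.03 ± 0.80 (SD, n = 4), which was 2.15 times the parental ratio, and all 4 EIR libraries were above it. Both clones had lower EZH1 counts. The further step from clone 3 to clone 4 came with higher EZH2 counts. In treated cells it also came with a lower normalized count of EZH1 (536 in clone 4 against 584 in clone 3). Per kilobase of canonical transcript, EZH2 made up 80.3% of EZH1 plus EZH2 in parental cells against 89.6% ± 1.44 (SD, n = 4) over EIR libraries. With the median length over annotated transcripts, which for EZH1 is 920.5 bases against 4633 for the canonical one, these shares were 45.0% and 63.5% ± 3.62. The size of the share thus depended on the length chosen. All 4 EIR libraries were above parental cells with each length, but this adds nothing to the count ratios. Each gene was divided by the same length in every library, so the ratios fix the order of the libraries. The share was given no test, since 4 libraries against 1 cannot pass 0.05 in an exact permutation test.

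**Figure D2:**
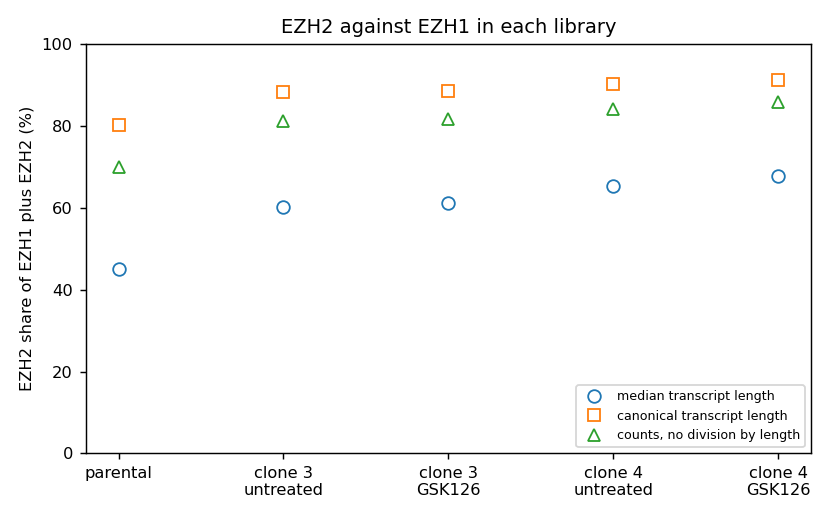
EZH2 as a percentage of EZH1 plus EZH2 in each library, with counts divided by the median transcript length (circles), by the canonical transcript length (squares) or not divided (triangles). The parental library is lowest, and clone 4 lies above clone 3 in untreated and in treated cells. This order is the same by all 3 measures by construction, since each gene is divided by the same length in every library.

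The subunits that EZH2 needs for activity had higher normalized counts in EIR cells but did not pass the test, and after GC correction the log2 fold changes were 0.00 for EED and 0.13 for SUZ12. For EED (ENSG00000074266, chromosome 11, 85912254 to 85989855, plus strand) the normalized count was 1012 in parental cells, 1306 in untreated and 1233 in treated clone 3, and 1587 in untreated and 1689.6 in treated clone 4. All EIR libraries were above parental cells and clone 4 was above clone 3. The log2 fold change over parental cells was 0.52 (SE 0.26), with a DESeq2 adjusted p of 0.133. For SUZ12 (ENSG00000178691, chromosome 17, 30264026 to 30328057, plus strand) the normalized count was 1479.6 in parental cells, 1636 in untreated and 1951 in treated clone 3, and 2490.2 in untreated and 2833 in treated clone 4. Again no EIR library reached down to the parental level, and the log2 fold change was 0.59 (SE 0.35) with a DESeq2 adjusted p of 0.214. Adding the counts of the pseudogene SUZ12P1, whose reads RSEM can share with SUZ12, gave 0.45 (DESeq2 adjusted p 0.356).

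RBBP4 and RBBP7 were the most abundant members by count. For RBBP4 (ENSG00000162521, chromosome 1, 33116743 to 33151812, plus strand) the normalized count was 6268 in parental cells, 5631 in untreated and 5209 in treated clone 3, and 5674 in untreated and 5864 in treated clone 4. For RBBP7 (ENSG00000102054, chromosome X, 16857406 to 16888485, minus strand) the normalized count was 11677 in parental cells, 9467 and 9183 in untreated and treated clone 3, and 11046 and 8915 in clone 4. Both were below parental cells in all EIR libraries, but by little: the log2 fold changes were -0.16 (95% interval -0.46 to 0.13, DESeq2 adjusted p 0.466) and -0.27 (-0.66 to 0.11, DESeq2 adjusted p 0.321). RBBP4 made up 40.0% of RBBP4 plus RBBP7 in parental cells against 41.9% ± 2.50 (SD, n = 4) over EIR libraries per median transcript length, which differed by less than the spread between EIR libraries. With canonical lengths the shares were 13.4% and 14.4% ± 1.27. RBBP7 overlaps TXLNG on the opposite strand over 5237 bases and RBBP4 overlaps SYNC over 6306 bases, and it is not stated whether counting used the strand, so that reads of these partners cannot be told apart with certainty. SYNC held between 41 and 117 counts, while TXLNG held between 2190 and 3457.

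Among the accessory subunits, PHF1 was lower in EIR cells, while the set of JARID2 and AEBP2 showed no call. For PHF1 (ENSG00000112511, chromosome 6, 33378176 to 33384230, plus strand) the normalized count was 469 in parental cells, 238 in untreated and 197 in treated clone 3, and 273 in untreated and 289.9 in treated clone 4. All EIR libraries lay below parental cells, with a difference of -0.91 on the log2 scale (95% interval -1.54 to -0.29) and a DESeq2 adjusted p of 0.0204. PHF1 passed the threshold in only 4 of 12 alternative fits: the adjusted p was 0.0829 in edgeR, 0.183 with the libraries of each clone summed and, after correction for GC content, 0.343 with a log2 fold change of -0.49. PHF1 has the fewest counts and, at 60.5%, the highest transcript GC content of the members. The end of PHF1 also overlaps that of CUTA on the opposite strand, by 12 bases.

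For MTF2 (ENSG00000143033, chromosome 1, 93544792 to 93604636, plus strand), the most highly counted Polycomb-like gene, the normalized count was 2509.9 in parental cells, 2990.3 in untreated and 3018 in treated clone 3, and 3437 in untreated and 2691 in treated clone 4. All EIR libraries were above parental cells, with a log2 fold change of 0.27 (95% interval -0.13 to 0.67, DESeq2 adjusted p 0.349). PHF19, which is no member, had 1479 normalized counts in parental cells against 1667 ± 308 (SD, n = 4) in the EIR libraries (log2 fold change 0.17, DESeq2 adjusted p 0.717). MTF2 made up 52.2% of PHF1, MTF2 and PHF19 per kilobase of canonical transcript in parental cells, 61.9% and 63.8% in untreated and treated clone 3, and 59.8% and 51.9% in clone 4. With canonical lengths treated clone 4 was thus near the parental share and the other 3 EIR libraries above it. With median lengths the share was 40.2% in parental cells against 44.4% ± 5.30 (SD, n = 4) over EIR libraries. Treated clone 4 was then below parental cells, at 36.8%, and the other 3 EIR libraries were again above them.

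For JARID2 (ENSG00000008083, chromosome 6, 15246300 to 15522273, plus strand) the normalized count was 965 in parental cells, 707 in untreated and 692 in treated clone 3, and 946 in untreated and 964 in treated clone 4. Only clone 3 was clearly below the parental level, and the log2 fold change over both clones was -0.22 (95% interval -0.80 to 0.36, DESeq2 adjusted p 0.637). For AEBP2 (ENSG00000139154, chromosome 12, 19556979 to 19873735, plus strand) the normalized count was 973 in parental cells, 999.9 in untreated and 1115 in treated clone 3, and 1334 in untreated and 1442 in treated clone 4. Its log2 fold change was 0.33 (95% interval -0.22 to 0.88, DESeq2 adjusted p 0.421), with untreated clone 3 almost at the parental level.

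Across the complex, 2 of 10 members passed the threshold against parental cells, both lower, where 25.5% of all genes tested were called (12.4% higher and 13.2% lower). The share of members called was therefore near that of all genes. The median log2 fold change was -0.04 over members and 0.00 over all genes tested. In 4 members all EIR libraries were above parental cells (31.9% of expressed genes), and in 5 all were below (40.6%). The 4 higher ones, EED, SUZ12, AEBP2 and MTF2, were also the members of lowest transcript GC content (37.7%, 38.5%, 42.9% and 40.8%). After GC correction their log2 fold changes were 0.00 for EED, 0.13 for SUZ12, 0.20 for AEBP2 and -0.01 for MTF2, so that EED and MTF2 lay at 0.

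**Figure D3:**
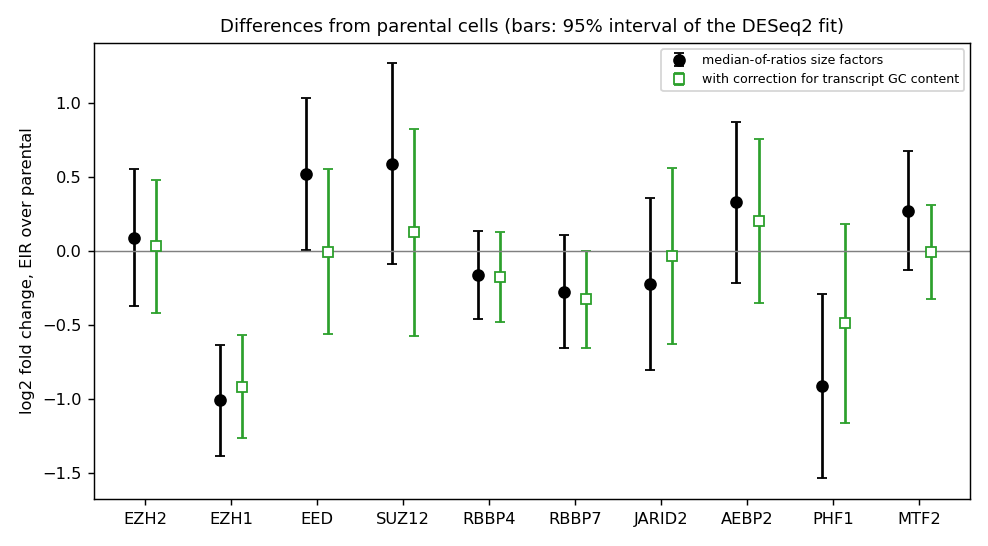
Log2 fold change of EIR (4 libraries) over parental cells (1 library) for each PRC2 gene from DESeq2, as fitted (black circles) and after correction for transcript GC content (green squares), with 95% intervals as bars. EZH1 lies below 0 with its whole interval in both fits, whereas the interval of PHF1 reaches 0 after the correction and EED and MTF2 move to 0.

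The order of transcript levels within a library was then compared, as normalized counts per kilobase of canonical transcript, with PHF19 added. In parental cells the order was RBBP7 (5119), EZH2 (1035), RBBP4 (795), MTF2 (616), EED (485), PHF19 (356), SUZ12 (329), EZH1 (254), PHF1 (207), AEBP2 (167) and JARID2 (161). In EIR libraries RBBP7 (4232 ± 419, SD, n = 4) and EZH2 (1101 ± 147) stood apart from each other and from the rest. MTF2 (745 ± 75.3), RBBP4 (710 ± 35.0) and EED (696 ± 105) followed and overlapped one another, as did SUZ12 (496 ± 119) and PHF19 (402 ± 74.1). AEBP2 (210 ± 34.5) was above JARID2 (138 ± 24.6), EZH1 (126 ± 7.46) and PHF1 (110 ± 18.2), which overlapped. EZH1 thus ranked 8 of 11 in parental cells, above AEBP2 and JARID2, and between 9 and 11 in EIR libraries, below AEBP2 in each of them. This order holds for canonical lengths, a choice made after seeing the data. With median lengths EZH2 made up 45.0% of EZH1 plus EZH2 in parental cells, so that EZH1 would stand above EZH2 there, and the order of genes depended on the length chosen.

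Clones 3 and 4 were next compared with treatment as a covariate, to see how far PRC2 genes differ between resistant clones. SUZ12 was higher in clone 4, by 0.57 on the log2 scale (SE 0.18, DESeq2 adjusted p 0.0208), with 0.61 between untreated and 0.54 between treated libraries. It was the only member called of 10 (9.81% of all genes tested were called, 3.3% higher and 6.52% lower), and edgeR called it with an adjusted p of 0.0181. In fits that left out untreated or treated clone 3 and also dropped the treatment covariate, the DESeq2 adjusted p was 0.562 and 0.123, with log2 fold changes of 0.43 and 0.67. No other member passed the threshold in DESeq2. The values were 0.44 for JARID2 (DESeq2 adjusted p 0.247, and 0.0450 in edgeR), 0.39 for AEBP2, 0.37 for PHF1, 0.36 for EED and 0.33 for EZH2 (95% interval -0.01 to 0.67, DESeq2 adjusted p 0.307). RBBP4 and RBBP7 (0.08 each), MTF2 (0.01) and EZH1 (-0.04, 95% interval -0.52 to 0.43) were nearer to 0.

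In 7 of 10 members both libraries of clone 4 were above both of clone 3, which held for 27.8% of expressed genes. These were EZH2, EED, SUZ12, RBBP4, JARID2, AEBP2 and PHF1. The median log2 difference was 0.34 over members and 0.00 over all genes tested. It was 0.38 over 8 genes whose products oppose or modulate methylation of H3 lysine 27 (7 of 8 above 0) and 0.38 over 3 further PRC2 subunits. Of 20 genes of cell division, beside which EZH2 is commonly expressed, 3 passed the threshold between the clones, where 9.81% of all genes tested did, and the median of the list was 0.11. Of these, MKI67 (0.67, DESeq2 adjusted p 0.0187) and MCM6 (0.65, DESeq2 adjusted p 0.00864) were higher in clone 4 and CCNB1 (-0.57, DESeq2 adjusted p 0.00974) was lower. MKI67 had 19000 normalized counts in treated clone 4 and between 8704 and 10977 in the other EIR libraries, and its call was made in 5 of 11 alternative fits. The part of proliferation in the difference of PRC2 genes was not tested.

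GSK126-treated EIR cells were compared with untreated ones in the same clones. No member passed the threshold: 0 of 10 were called and 0 had an unadjusted p under 0.05 in DESeq2 or edgeR, where DESeq2 called 0.00335% of all genes tested (1 of 29847) and edgeR 0. With the clone number as replicate block, DESeq2 called 4 genes and edgeR 1, none of them members. EZH2 had a log2 fold change of -0.02 (95% interval -0.52 to 0.48) and EZH1 of -0.13 (-0.60 to 0.34), both with a DESeq2 adjusted p of 1.00. These intervals come from the fit without the replicate block. They do not show that the genes were equal with and without the drug. With the block, DESeq2 gave -0.02 (SE 0.17) for EZH2 and -0.13 (SE 0.24) for EZH1. Within clone 3 the largest member difference was 0.27 on the log2 scale (PHF1, lower) and within clone 4 it was 0.35 (MTF2, lower). The SD over expressed genes was 0.24 and 0.39 in these clones. In 6 of 10 members the clones moved in opposite directions. The share of all expressed genes that did so was not computed, so this count is no result particular to the members. SUZ12 (0.25 in clone 3 and 0.19 in clone 4) and AEBP2 (0.16 and 0.11) were higher in the treated library of both clones, and EZH1 (-0.03 and -0.20) and RBBP7 (-0.04 and -0.31) lower.

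**Figure D4:**
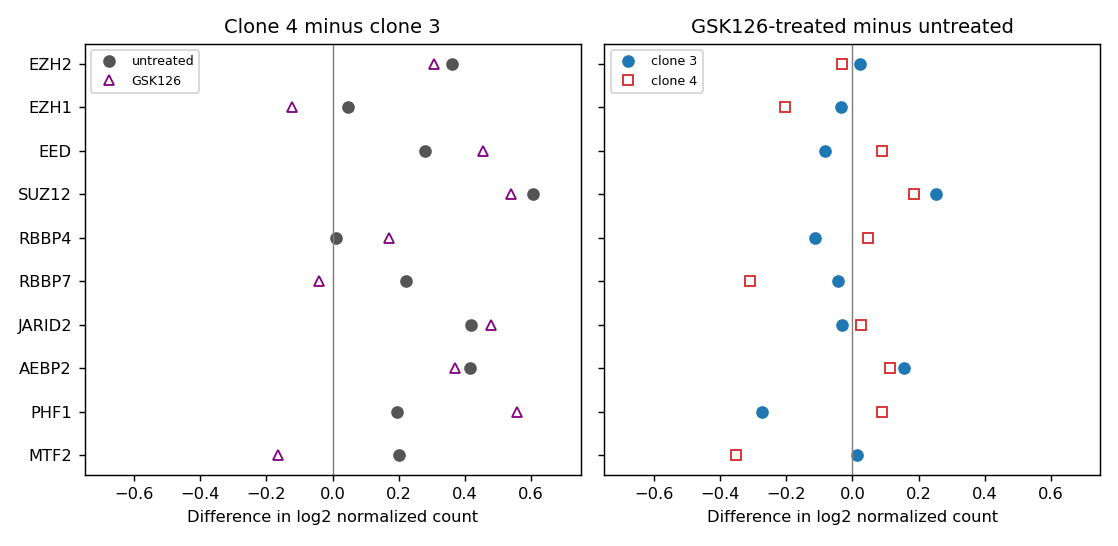
Differences in log2 normalized count of each PRC2 gene between clone 4 and clone 3 (left, untreated as circles and GSK126-treated as triangles) and between treated and untreated libraries (right, clone 3 as circles and clone 4 as squares). SUZ12 lies at 0.61 and 0.54 on the left, and on the right the points of the clones scatter about 0, with none beyond 0.35.

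Genes around the complex were described from 4 lists, whose counts against parental cells stand beside the 25.5% of all genes tested that were called. Of the other PRC2 subunits PHF19, LCOR and LCORL were in the table, and none of the 3 passed the threshold against parental cells (log2 fold changes 0.17, 0.52 and 0.43) or between the clones (0.45, 0.38 and 0.35). EPOP and EZHIP had no matching identifier and are not analysed here. Of 8 genes whose products oppose or modulate methylation of H3 lysine 27, 1 passed against parental cells, no more than the 25.5% of all genes tested. This gene, the H3 lysine 36 methyltransferase NSD2, had 9105 normalized counts in parental cells against 5884 ± 871 (SD, n = 4) in the EIR libraries (log2 fold change -0.63, DESeq2 adjusted p 0.0432, called in 4 of 12 alternative fits). None of the 8 was called between the clones.

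Of the 20 genes of cell division, 1 passed against parental cells, below the 25.5% of all genes tested. TOP2A, the topoisomerase that untangles replicated DNA, had 13185 normalized counts in parental cells against 32232 ± 3390 (SD, n = 4) in the EIR libraries. It rose by 1.29 on the log2 scale (DESeq2 adjusted p 1.53e-08). The median log2 fold change of these genes was 0.05, with 14 above 0 and 6 below. Of 10 genes of other complexes that hold RBBP4 or RBBP7, 3 passed, which is near the 25.5% of all genes tested. The deacetylase HDAC1 (-1.04, DESeq2 adjusted p 2.13e-06) and its partner in the NuRD complex MTA1 (-0.87, DESeq2 adjusted p 3.15e-04) were lower in EIR cells, and HAT1, which acetylates new histone H4 together with RBBP7, was higher (0.88, DESeq2 adjusted p 0.00172). HDAC1 had 5956 normalized counts in parental cells and between 2517 and 3107 in EIR libraries, and was called in all 12 alternative fits. MTA1 and HAT1 were each called in 11 of 12, with an adjusted p of up to 0.195 (log2 fold changes from -0.92 to -0.43) for MTA1 and up to 0.0506 (0.55 to 0.97) for HAT1.

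The genes whose profile over the 5 libraries was most like those of EZH2 and EZH1 were found among 11564 expressed genes, by the root mean square difference of mean-centred log2 normalized counts. For EZH2 these included ZNF44 (0.0126), GPAT3 (0.0288), TSTD2 (0.0337) and SNHG7 (0.0374). For EZH1 they were LAMTOR2 (0.0330), PCBD1 (0.0331), CCDC117 (0.0351), ZSCAN2 (0.0352) and CNPY3 (0.0408). None of the genes named here was a PRC2 gene or in the lists above.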

How the data were processed

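Total RNA of 5 TOV21G libraries was sequenced after a stranded kit (paired-end). The authors aligned reads to hg19 with bowtie2 and estimated reads per Ensembl gene with RSEM. The deposited values are these expected counts, rounded to whole numbers and not normalized. RSEM divides ambiguous reads between genes, so pseudogenes and overlapping genes can take or give counts. Of 30476 identifiers, 29203 (95.8%) matched GENCODE release 44 on GRCh37, used for symbols, coordinates, length and GC content.

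Groups and clone numbers came from the labels. The whole table was tested in R 4.3.3 with DESeq2 1.42.0 (two-sided Wald test, Benjamini-Hochberg adjusted p under 0.05), as in the study's methods. A normalized count is a count divided by the median-of-ratios size factor, and log2 values per library used a pseudocount of 0.5. Expressed genes had a mean of at least 100 normalized counts. GC correction subtracted a lowess curve (span 0.3) of the log2 deviation on GC content. Alternatives were edgeR 4.0.16 (quasi-likelihood), TMM or total count scaling, a filter of 10 counts in 2 libraries, added pseudogene counts, leaving out each EIR library, clone sums, a treatment covariate and the replicate block. The clone number paired the libraries, because same-numbered libraries come from the same clone. Deviations from the group means correlated at 0.862 across 11564 genes, as a description. The fits were run on simulated data with 200 changed genes, drawn as independent libraries. Apart from the changed genes, libraries of the same clone were not made alike, so the simulation does not give the error rates in these data. The 10 members were named by symbol, the genes of the lists by passing the threshold (at most the 4 largest per list and comparison, and every further PRC2 subunit), and the 5 most similar genes by the stated distance. A few results for single genes are left out here. The members and lists were chosen with earlier results of these data known. Intervals cover the spread between these libraries, which may in part be technical. Against parental cells this spread includes that between the clones, and the 2 libraries of a clone were treated as independent. With clone sums the SE was 0.33 rather than 0.19 for EZH1 and 0.31 rather than 0.24 for EZH2.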

Additional observations from a re-analysis of the deposited data

Results flagged for a closer look

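SUZ12 differed between the EIR clones in a test of the difference itself: clone 4 exceeded clone 3 by 0.566 on the log2 scale (DESeq2 adjusted p 0.0208). The difference was 0.61 between the untreated and 0.54 between the treated libraries, each a difference of single libraries with no test. The adjusted p was 0.562 without untreated clone 3 and 0.123 without treated clone 3, both with the treatment covariate dropped as well.

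EZH2 lay on opposite sides of the parental level in the clones, below it in both libraries of clone 3 and above it in both of clone 4. The mean log2 difference between clone 4 and clone 3 was 0.333, and the opposite position against the single parental library was not tested.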

How the results depend on the processing

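Of the values that answer a comparison, 63 kept their value or call and 31 moved under an alternative. Of the values of single genes, 234 kept direction and call, 10 lost the call, 1 gained it and 9 changed sign. Against parental cells, 4157 genes were called, and 2024 in edgeR, 1914 with clone sums and 1998 with a treatment covariate. Members called went from 2 to 1 in edgeR, with total count scaling, GC correction, clone sums and the treatment covariate, by the loss of PHF1 (DESeq2 adjusted p 0.0536 with total count scaling and 0.203 with the covariate). Leaving out 1 EIR library gave 2838 to 4022 genes and 1 to 2 members, and PHF1 was lost without untreated clone 3 (adjusted p 0.0914), untreated clone 4 (0.0537) or treated clone 3 (0.0656). GC correction turned EED (-0.00437) and MTF2 (-0.006). For total count scaling the share of higher calls was 56.8% against 48.4%, and in edgeR 39.5%.

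Between the clones 1738 genes were called, 1 of them a member, and 2 members in edgeR, with JARID2 added. Leaving out 1 library, without the treatment covariate (chosen after seeing the data, since the covariate leaves no residual degree of freedom), gave 831 to 2800 genes and 0 to 1 members. The count was 875 without untreated clone 3, 831 without treated clone 3 and 2800 without untreated clone 4, and the lone library of a clone is then assumed to vary like the other clone. RBBP7 (-0.0784) and MTF2 (-0.172) changed sign without untreated clone 4, and EZH1 (0.0539) without treated clone 4, all near 0.

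For treated against untreated cells 1 gene was called, 0 in edgeR (86 at an unadjusted p under 0.05, and 117 in DESeq2) and 1 to 25 without 1 library (25 without untreated clone 3, 4 without untreated clone 4 and 4 without treated clone 3). The replicate block gave 4 genes in DESeq2 and 1 in edgeR and changed the call of no member. EZH2 changed sign with total count scaling (0.0674), GC correction (0.0295), without untreated clone 4 (0.162) and without treated clone 3 (0.112), and ranged from -0.181 to 0.162 without 1 library. No member was called in any of these fits.

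The EZH2 share in EIR libraries was 63.5%, and 83.6% with the longest, 89.6% with the canonical transcript (added after seeing the data) and 83.2% without length. The RBBP4 share was 41.9%, and 22.9%, 14.4% and 36.8% in the same order. The MTF2 share was 44.4%, and 59.4%, 59.4% and 61.4%. Without 1 EIR library they were 62.1% to 64.7%, 40.9% to 42.9% and 42.9% to 46.9%. The single parental library, and the low counts of PHF1, limit what these data can show. RNA levels do not measure the assembled complex or its activity.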
